A study of Homo sapiens with 4 samples.

Results

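The homologous recombination (HR) and Fanconi anemia (FA) genes were followed in MDA-MB-231, a triple-negative breast cancer line with mesenchymal features, after siRNA against AXL, a cell surface tyrosine kinase that binds the ligand GAS6. The set holds 45 genes of the 63677 genes in the deposited table. They were chosen by gene symbol from a named list, and each matched a row with reads in every library. The 2 groups were cells transfected with a control siRNA (siCt, 2 libraries) and cells transfected with an ON-TARGET Smart Pool of siRNAs against AXL (siAXL, 2 libraries). All 4 libraries came from 1 cell line, no DNA damaging agent is named for either group, and the siRNAs of the pool were not tested one by one. Nothing in the labels says that the libraries of a group came from separate cultures, so each p-value measures only the spread between these libraries, which may be technical. RNA was taken in bulk, so fewer cells of a kind and less RNA per cell cannot be told apart.

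Homologous recombination repairs a broken chromosome by copying the intact sister strand, and works in S and G2 phase. The MRN complex and CtIP trim the broken end, the BRCA1-PALB2-BRCA2 complex prepares the trimmed strand for exchange with the intact copy, and helicases and nucleases then separate the joined strands. The Fanconi anemia pathway acts on crosslinks between the strands: the FA core complex and the E2 enzyme UBE2T attach ubiquitin to FANCD2 and FANCI, and USP1 removes it. Many of these genes are transcribed most strongly around S phase, and inherited loss of BRCA1, BRCA2 or PALB2 predisposes to breast cancer.

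The libraries held between 39574387 and 44585773 reads assigned to genes. AXL, the targeted gene, had 29189 and 30617 normalized counts in siCt 1 and siCt 2 and 8658 and 7141 in siAXL 1 and siAXL 2, a log2 fold change of -1.93 (SE 0.092, limma adjusted p = 0.000585). The mesenchymal genes VIM, CD44 and CAV1 were at 17121 normalized counts or more in every library. ESR1 and PGR, the hormone receptors that this subtype lacks, had at most 3.25. The leukocyte gene PTPRC reached 16.7, and CD3E and PECAM1 were at 0 in at least 3 libraries each. The endothelial gene VWF lay between 2.88 and 6.80. The liver gene ALB had 3.84 and 2.17 in siCt and 10.7 and 4.91 in siAXL. Both VWF and ALB were too low to be tested. CAV1 was higher in siAXL (log2 fold change 0.34, limma adjusted p = 0.00908), as was ERBB2 (0.26, limma adjusted p = 0.0258), which lay between 2949 and 3680.0. Of the epithelial genes, CDH1 had 90.1 and 94.3 in siCt and 36.9 and 22.6 in siAXL (-1.64, limma adjusted p = 0.00847), and EPCAM had 565 and 625 in siCt and 711 and 771 in siAXL (0.32, limma adjusted p = 0.0513, edgeR adjusted p = 0.043). The part of these shifts in the results below was not tested.

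After AXL siRNA the HR and FA genes were on balance lower. By limma on log2(normalized count + 1), with an adjusted p under 0.05, 16 of the 45 genes were lower (35.6%, against 7.91% of the 16064 genes tested) and 2 were higher (ATRIP and RMI2, against 10.8% of the genes tested). The other 27 did not pass the test. The fitted change was below 0 in 41 genes (against 50.3% of the genes tested). In 35 genes each siAXL value was under each siCt value (30.5% of the genes tested), in 2 it was over each (30.6%), and in 8 the groups overlapped. The median log2 fold change of the 45 genes was -0.25, beside -0.0022 over all genes tested, and the changes were modest, from -0.58 for XRCC3 to 0.51 for RMI2.

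Counts of called genes moved when single libraries were left out, and fell most without siAXL 1. The share of all genes called lower was smallest in that fit too. The median log2 fold change of the 45 genes was still -0.22 there, so the lost calls do not show that siAXL 1 alone made the difference. Over the 45 genes the median difference from the siCt mean was -0.26 in siAXL 1 and -0.22 in siAXL 2, and 29 genes were lower in siAXL 1 than in siAXL 2. Without siAXL 1, 3 of the 16 genes remained lower (UBE2T, XRCC2 and XRCC3, against 2.57% of the genes tested) and 0 were called higher (against 5.53%). Without siAXL 2 the counts were 11 (against 4.02%) and 1 (against 5.43%), without siCt 1 they were 20 (against 10.8%) and 3 (against 13.4%), and without siCt 2 they were 14 (against 5.82%) and 1 (against 9.61%). The fitted change stayed below 0 in 40 or 41 genes without any one library. With every gene that had at least 1 read in any library tested (27108 genes), 2 genes were called lower (XRCC3 and RMI1, against 1.25%) and 1 higher (RMI2, against 2.79%).

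**Figure D1:**
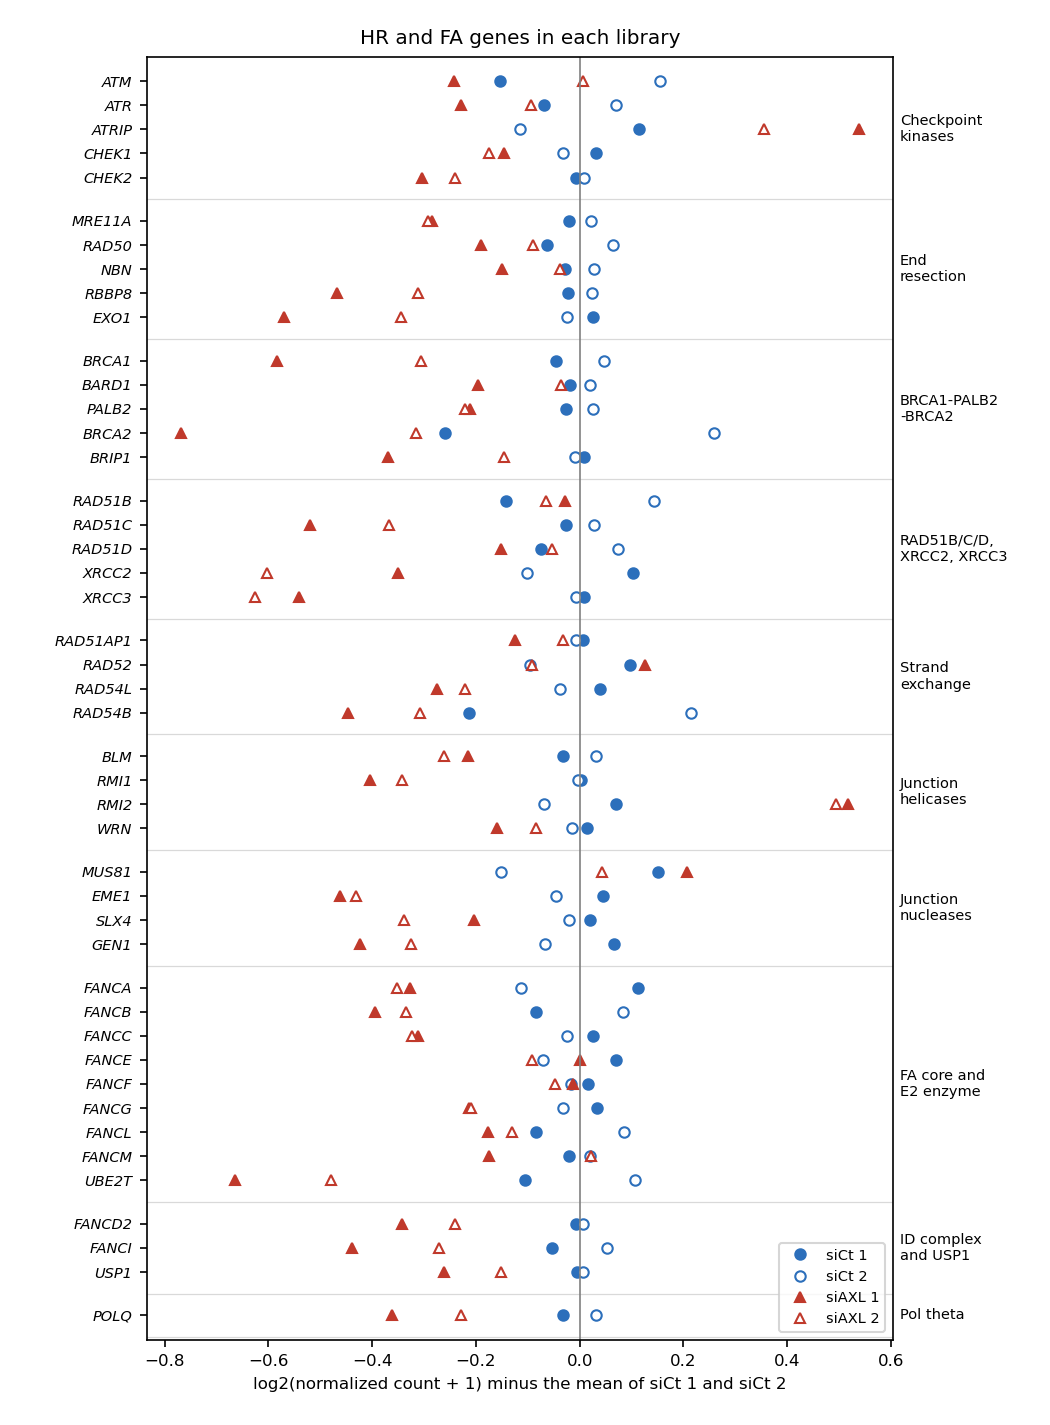
Each row is 1 of the 45 HR and FA genes, and each point 1 library. The x axis is log2(normalized count + 1) minus the mean of siCt 1 and siCt 2 of that gene. The siAXL triangles lie left of both siCt circles in 35 rows and right of both in 2, ATRIP and RMI2.

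The promoters of the 45 genes were read from RefSeq (GRCh38.p14), which held an entry for 40 of them, from 250 bases before to 50 bases after each start. NBN, RAD54B, RMI2, WRN and FANCI had no entry. Genes had different numbers of starts, and a gene was counted if the stretch around any of them held the word. Searched on both strands, 23 of the 40 (57.5%) held a word that fits the core of the E2F site. The words were TTCCCGC itself, TTGGCGC, which differs in its middle, and the forms TTCGCGC and TTGCCGC. The same words were in 24.5% of the 11080 tested genes with an entry and in 15.3% of all 27305 genes with a RefSeq entry. TTCCCGC alone was in 17 of the 40 (42.5%, against 12.5% of the tested genes). The other forms were rarer: TTGGCGC in 4 (10%, against 5.90%), TTCGCGC in 5 (12.5%, against 4.79%) and TTGCCGC in 2 (5.0%, against 4.59%). CCAAT, the box that NF-Y binds, was in 20 (50%, against 43.1%), and TTTGAA, a core of the cell cycle homology region, in 6 (15.0%, against 14.1%). Of the longer words looked at, TTTGGCGC was in 0 of the 40 (against 1.31% of the tested genes). TTTCCCGC was in 3 (7.5%, against 3.20%). TTTCGCGC was also in 3 (7.5%, against 1.09%). TTTGGCGG was in 0 (against 1.35%). The words TTTGGCG and TTTGCGC, also looked at, were in 1 (2.5%, against 3.62%) and 3 (7.5%, against 3.86%). GGCGGGAA, read on both strands, was in 12 (30%, against 6.18%). Both GGCGGGAA, on its other strand, and TTTCCCGC contain TTCCCGC, so their genes are among those 17 and add no further ones. Of the 15 genes called lower with an entry, 11 held an E2F word, as did 12 of the 24 that were not called. The words were chosen from 13 that were looked at after the values were seen, words of different kinds may share bases (ATTGG with TTGGCGC), and a match is not a binding site. An E2F word was in 16 of 36 promoters of the further HR and FA genes described further on. Among replication genes it was in 28 of 36, and among end joining genes in 6 of 19. TTCCCGC alone was in 7 of 36 (19.4%) promoters of the further HR and FA genes. It was in 15 of 36 (41.7%) of the replication genes and 4 of 19 (21.1%) of the end joining genes.

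Stretches of 250 bases, from 220 before to 30 after the start, are printed for 4 genes, with E2F words, CCAAT and TTTGAA on either strand in capitals. ATRIP had 2 starts, and the stretch printed held no fewer kinds of these words than the other. XRCC3 and UBE2T are shown because they stayed lower without any one library. XRCC2 is shown as a gene that stayed lower without siAXL 1, and ATRIP as 1 of the 2 genes called higher. XRCC3 lies at chr14:103715422-103715671 (minus strand), UBE2T at chr1:202341907-202342156 (minus strand), XRCC2 at chr7:152676112-152676361 (minus strand) and ATRIP at chr3:48446517-48446766 (plus strand), each covering the promoter and the first bases of the transcript, on GRCh38.p14, which is not the GRCh37 build of the counts.
XRCC3: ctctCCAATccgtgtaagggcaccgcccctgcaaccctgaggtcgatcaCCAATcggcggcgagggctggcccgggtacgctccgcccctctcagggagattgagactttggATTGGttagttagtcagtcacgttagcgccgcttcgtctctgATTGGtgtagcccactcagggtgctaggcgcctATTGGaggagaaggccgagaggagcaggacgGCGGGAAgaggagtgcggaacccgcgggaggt
UBE2T: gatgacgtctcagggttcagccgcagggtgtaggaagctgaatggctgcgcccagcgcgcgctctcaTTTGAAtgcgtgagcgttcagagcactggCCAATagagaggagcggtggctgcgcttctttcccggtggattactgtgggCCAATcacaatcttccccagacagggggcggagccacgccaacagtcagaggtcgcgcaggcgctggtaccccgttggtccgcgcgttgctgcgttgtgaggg
XRCC2: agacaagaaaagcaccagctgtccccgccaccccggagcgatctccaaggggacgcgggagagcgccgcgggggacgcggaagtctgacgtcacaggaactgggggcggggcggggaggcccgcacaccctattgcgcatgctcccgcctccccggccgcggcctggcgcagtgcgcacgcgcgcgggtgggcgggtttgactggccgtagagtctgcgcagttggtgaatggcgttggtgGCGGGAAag
ATRIP: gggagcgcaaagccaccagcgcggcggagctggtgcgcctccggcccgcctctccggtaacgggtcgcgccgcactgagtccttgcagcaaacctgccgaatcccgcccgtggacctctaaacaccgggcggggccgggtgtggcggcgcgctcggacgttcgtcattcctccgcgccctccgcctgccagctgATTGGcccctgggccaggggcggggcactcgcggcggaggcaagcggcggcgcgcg
The XRCC3 stretch holds 5 CCAAT words and 1 E2F word that begins 2 bases before the start. UBE2T holds 2 CCAAT words and TTTGAA but no E2F word, XRCC2 a single E2F word after the start, and ATRIP a single CCAAT word.

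The checkpoint kinases and their partners sense the break. ATRIP, which brings the kinase ATR to single-stranded DNA, had 363 and 309.9 normalized counts in siCt 1 and siCt 2 and 488 and 429 in siAXL 1 and siAXL 2. Both siAXL libraries were above both siCt libraries, at 136% of the siCt mean (log2 fold change 0.45, SE 0.12, limma adjusted p = 0.0412). The call was lost without siCt 2 (limma adjusted p = 0.0945), without siAXL 1 (0.192), without siAXL 2 (0.0561) and with scaling by library size alone (0.0592). ATRIP shares 27.9% of its merged exon bases with TREX1 on the same strand, an exonuclease gene whose own log2 fold change was -0.29 (limma adjusted p = 0.0935), and how reads there were divided was not tested. CHEK2, a kinase downstream of ATM, had 327 and 330.5 in siCt and 266 and 278 in siAXL. Its siAXL libraries lay below both siCt libraries, but the change of -0.27 (SE 0.10) did not pass (limma adjusted p = 0.101). ATR had a fitted change of -0.16 and CHEK1, the kinase that ATR activates, of -0.16 (limma adjusted p = 0.183 and 0.0953).

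ATM and BRCA2 are described here because of their spread, and were chosen for it after their values were seen. ATM, the kinase that answers to the MRN complex, had 4240.2 and 5251 in siCt and 3989 and 4736 in siAXL. The groups overlapped, and in each group the second library was the higher one. Its fitted change was -0.12 (SE 0.12, limma adjusted p = 0.531) and ranged from -0.27 to 0.036 when single libraries were left out. BRCA2, a mediator of strand exchange, had 1147 and 1643 in siCt and 805 and 1102 in siAXL. Here too the second library was the higher one in each group, and siAXL 2 lay just below siCt 1. The fitted change of -0.54 was among the 3 most negative of the set but had the largest SE (0.19, limma adjusted p = 0.0953), and ranged from -0.80 to -0.28 without single libraries. With siCt 1 left out it passed (limma adjusted p = 5.78e-09) and with siAXL 1 left out it did not (0.294). In such fits the spread comes from 1 pair of libraries and is shared across genes, so these p-values say little about the spread of BRCA2 itself.

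Among the end resection genes 3 of 5 were lower. RBBP8 encodes CtIP, which starts resection with MRE11. It had 3475 and 3589 normalized counts in siCt 1 and siCt 2 and 2552 and 2847 in siAXL 1 and siAXL 2. The siAXL libraries were both lower, at 76.4% of the siCt mean (log2 fold change -0.39, SE 0.069, limma adjusted p = 0.0121). EXO1, the exonuclease of long-range resection, had 1532 and 1480.1 in siCt and 1014 and 1186 in siAXL. It was lower in both siAXL libraries, more so in siAXL 1 (-0.46, SE 0.088, limma adjusted p = 0.0154). MRE11A, the nuclease of the MRN complex, had 1574 and 1621 in siCt and 1311 and 1305 in siAXL. Its libraries were close within each group and apart between them (-0.29, SE 0.062, limma adjusted p = 0.0226). Without siAXL 1 none of these 3 calls held (limma adjusted p = 0.0557, 0.0613 and 0.0976), and that of MRE11A was also lost without siCt 2 (0.0561) and without siAXL 2 (0.0948).

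The other MRN subunits did not pass. NBN had 3484 and 3620.0 in siCt and 3201 and 3459.8 in siAXL, so that siAXL 2 lay close under siCt 1. Its fitted change was -0.094 (95% interval -0.24 to 0.055, limma adjusted p = 0.344), and that of RAD50 was -0.14 (95% interval -0.30 to 0.024, limma adjusted p = 0.208).

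BRCA1 was the only one of the 5 genes of the BRCA1-PALB2-BRCA2 group that passed. It had 2240.0 and 2388 normalized counts in siCt 1 and siCt 2 and 1543 and 1872 in siAXL 1 and siAXL 2. Both siAXL libraries were lower, and they lay further apart than the siCt libraries (log2 fold change -0.44, SE 0.097, limma adjusted p = 0.023, and 0.0764 without siAXL 1). BARD1, the ubiquitin ligase partner of BRCA1, had 993 and 1021 in siCt and 879 and 983 in siAXL. Its siAXL 2 value was close under the siCt values, and the change was -0.12 (95% interval -0.31 to 0.075, limma adjusted p = 0.363). Whether the changes of the 2 partners differ was not tested. PALB2, which links BRCA1 to BRCA2, and the helicase BRIP1 were below both siCt libraries in both siAXL libraries without passing (-0.22 and -0.26, limma adjusted p = 0.0729 and 0.0697).

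In the group of RAD51B, RAD51C, RAD51D, XRCC2 and XRCC3, which act in strand exchange, 3 of 5 genes were lower. XRCC3, which forms a complex with RAD51C, had 1531 and 1515 normalized counts in siCt 1 and siCt 2 and 1047 and 987 in siAXL 1 and siAXL 2. Its siAXL libraries were at 66.8% of the siCt mean, with both groups tight, and the log2 fold change of -0.58 (SE 0.068, limma adjusted p = 0.0033) was the most negative of the 45 genes. It passed without any one library (limma adjusted p at most 0.0112). Of its merged exon bases 76.7% also belong to KLC1 on the other strand, a kinesin light chain gene with a log2 fold change of -0.13 (limma adjusted p = 0.187). The strand setting of the counting is not given in the sources used here, and its part in the XRCC3 value was not tested.

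RAD51C had 689 and 716 in siCt and 489 and 544 in siAXL, and XRCC2 had 1632 and 1416 in siCt and 1192 and 1001 in siAXL. Both genes were lower in both siAXL libraries (-0.44, SE 0.089, limma adjusted p = 0.0175, and -0.48, SE 0.11, limma adjusted p = 0.0247). XRCC2 had its lowest value in siAXL 2 and RAD51C in siAXL 1. RAD51C lost its call without siAXL 1 (limma adjusted p = 0.0908) and XRCC2 without siAXL 2 (0.0796). RAD51B, with 194 and 236 in siCt and 209.8 and 204 in siAXL, overlapped between groups (-0.047, 95% interval -0.36 to 0.27, limma adjusted p = 0.844). RAD51D also overlapped (-0.10, limma adjusted p = 0.555). RAD51B and RAD51D had the fewest reads per exon length of the set, and their intervals are wider than that of XRCC3.

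None of the 4 strand exchange partners passed. RAD52, an annealing protein, had 353 and 309 in siCt and 360.3 and 309.5 in siAXL. In each group the first library was the higher one, and the groups overlapped (0.017, 95% interval -0.27 to 0.30, limma adjusted p = 0.939). The motor proteins RAD54L and RAD54B were below both siCt libraries in both siAXL libraries, with fitted changes of -0.25 and -0.38 (limma adjusted p = 0.0524 and 0.133). RAD54L shares 25.1% of its exon bases with LRRC41 on the other strand. LRRC41 is more abundant and was higher in siAXL (0.24, limma adjusted p = 0.0308), and the part of such reads was not tested. RAD51AP1, a DNA binding factor, had a fitted change of -0.079 (95% interval -0.25 to 0.089, limma adjusted p = 0.489).

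RMI1 and RMI2 are subunits of the same complex with the helicase BLM, which dissolves double Holliday junctions, and their transcripts moved in opposite directions. RMI1 had 1541 and 1535 normalized counts in siCt 1 and siCt 2 and 1162 and 1213 in siAXL 1 and siAXL 2. It was lower in both siAXL libraries (-0.37, SE 0.065, limma adjusted p = 0.011). RMI2 had 401 and 364 in siCt and 547 and 538 in siAXL. It was higher in both, at 142% of the siCt mean (0.51, SE 0.093, limma adjusted p = 0.0134), the largest rise of the set. Among the single libraries left out, siAXL 1 alone ended the calls of RMI1 and RMI2 (limma adjusted p = 0.0591 and 0.057). BLM itself, at -0.24, and the helicase WRN, at -0.12, did not pass (limma adjusted p = 0.0727 and 0.264).

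**Figure D2:**
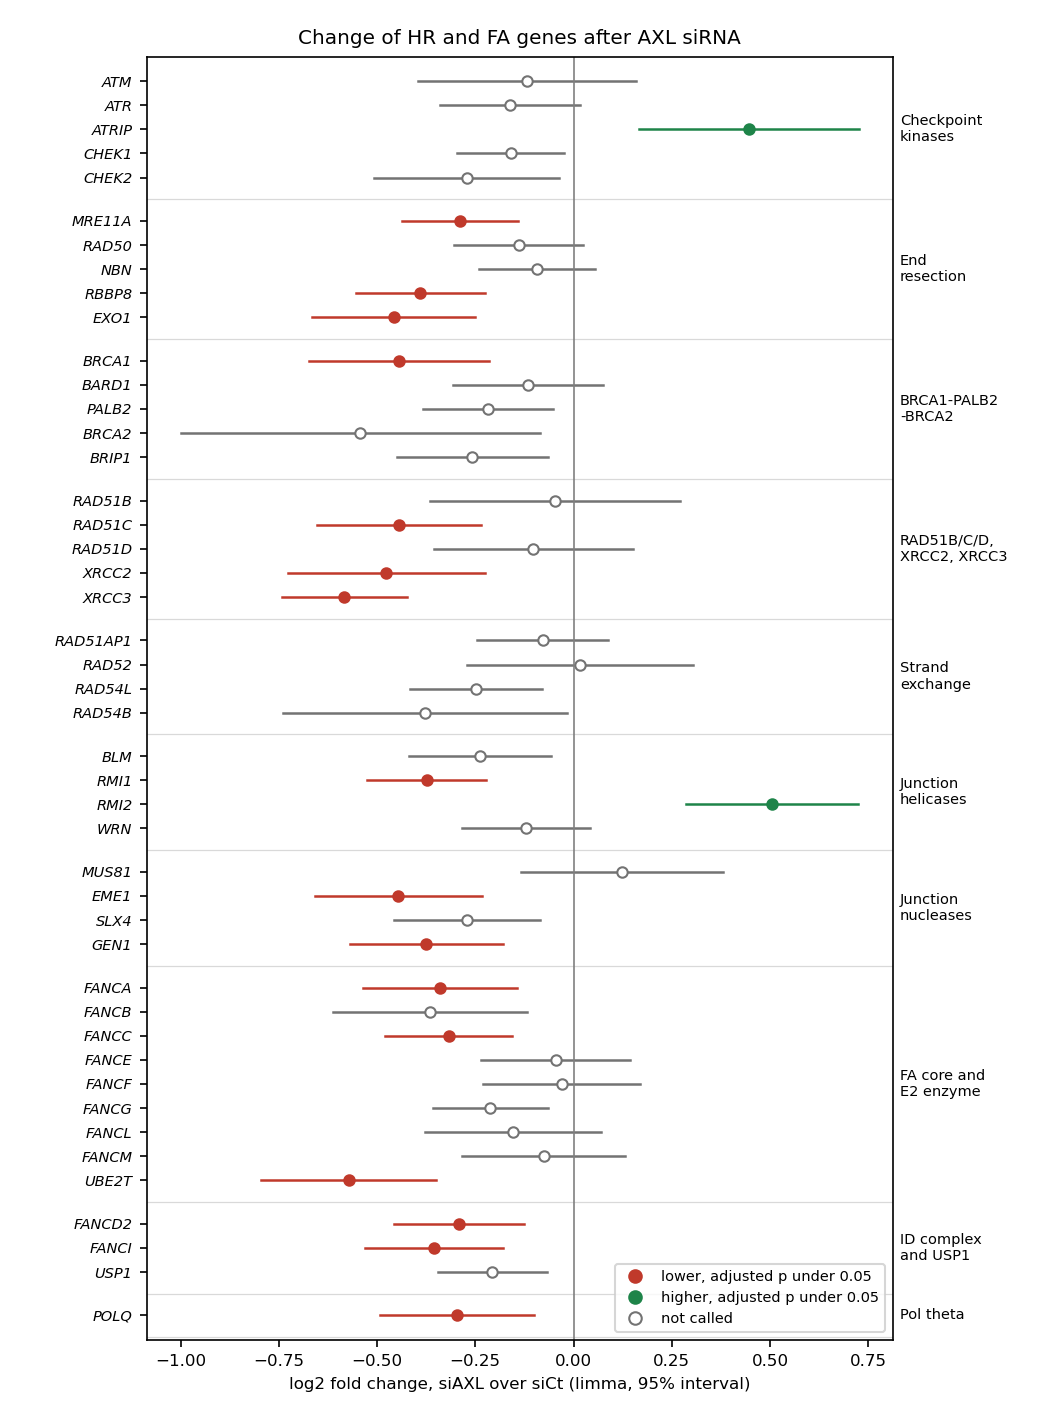
Points are log2 fold changes of siAXL over siCt from limma for the 45 genes, by role, and lines are 95% intervals. Filled points have an adjusted p under 0.05: 16 are lower and 2, ATRIP and RMI2, are higher, and open points did not pass.

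The structure-specific nucleases cut the same junctions. EME1, the partner of MUS81, had 524 and 492 normalized counts in siCt 1 and siCt 2 and 368 and 376 in siAXL 1 and siAXL 2. Both siAXL libraries were lower (-0.45, SE 0.09, limma adjusted p = 0.0179). MUS81, the catalytic subunit, had 1799 and 1457 in siCt and 1868 and 1668 in siAXL, and its groups overlapped (0.12, 95% interval -0.13 to 0.38, limma adjusted p = 0.474). Both genes overlap far more abundant genes on the other strand, EME1 over 16.4% of its exon bases with LRRC59 (-0.14, limma adjusted p = 0.112) and MUS81 over 13.9% with CFL1 (0.0014, limma adjusted p = 0.99), and the part of such reads was not tested. GEN1, a Holliday junction resolvase, had 1040.4 and 948 in siCt and 740.1 and 792 in siAXL. It was lower in both siAXL libraries (-0.38, SE 0.082, limma adjusted p = 0.0235). SLX4, a scaffold for MUS81 and EME1, did not pass (-0.27, limma adjusted p = 0.0538). Without siAXL 1, the limma adjusted p was 0.0782 for EME1 and 0.11 for GEN1, and without siAXL 2 it was 0.0592 for EME1.

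Of the 9 genes of the FA core complex and its E2 enzyme 3 were lower, and all 9 fitted changes were below 0. UBE2T, the E2 enzyme, had 2249.6 and 2606 normalized counts in siCt 1 and siCt 2 and 1527 and 1736 in siAXL 1 and siAXL 2. It was at 67.2% of the siCt mean, with both siAXL libraries well below both siCt libraries (-0.57, SE 0.094, limma adjusted p = 0.00953), and passed without any one library (limma adjusted p at most 0.0233). FANCC had 1131 and 1093 in siCt and 896 and 888 in siAXL, and FANCA had 2451 and 2097 in siCt and 1807 and 1777 in siAXL. Both core subunits were lower in both siAXL libraries (-0.32, SE 0.069, limma adjusted p = 0.0225, and -0.34, SE 0.083, limma adjusted p = 0.0324). Their calls were lost without siAXL 1 (limma adjusted p = 0.0916 and 0.0784) and without siAXL 2 (0.0941 and 0.0912), and that of FANCA also without siCt 1 (0.0693). FANCA shares 23.6% of its exon bases with ZNF276 on the other strand (-0.063, limma adjusted p = 0.817).

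The other 6 core subunits did not pass. FANCF, an adaptor of the core complex, had 489 and 478 in siCt and 479 and 468 in siAXL. The 4 values were close to each other and the groups overlapped (-0.031, 95% interval -0.23 to 0.17, limma adjusted p = 0.838). FANCE and FANCM overlapped between groups as well (-0.046 and -0.076, limma adjusted p = 0.737 and 0.593). FANCB, FANCG and FANCL, the E3 ligase subunit, were below both siCt libraries in both siAXL libraries without passing (-0.36, -0.21 and -0.15, limma adjusted p = 0.0524, 0.0555 and 0.303). FANCL shares 18.7% of its exon bases with the more abundant VRK2 on the other strand (0.11, limma adjusted p = 0.287), and the part of such reads was not tested.

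Both substrates of the core complex were lower. FANCI had 4521 and 4865 normalized counts in siCt 1 and siCt 2 and 3458 and 3887 in siAXL 1 and siAXL 2. FANCD2 had 1299 and 1312 in siCt and 1029.5 and 1105 in siAXL. In each gene both siAXL libraries were below both siCt libraries, and siAXL 1 was the lowest (-0.36, SE 0.074, limma adjusted p = 0.0204, and -0.29, SE 0.07, limma adjusted p = 0.0306). Without siAXL 1 the limma adjusted p was 0.0923 for FANCI and 0.176 for FANCD2, and FANCD2 was also lost without siCt 2 (0.0522) and without siAXL 2 (0.0626). USP1, which removes ubiquitin from both, had 6351 and 6398 in siCt and 5316 and 5738 in siAXL. It was lower in both siAXL libraries and lay just outside the threshold by limma (-0.21, SE 0.059, adjusted p = 0.0515), and inside it by edgeR (adjusted p = 0.0441) and DESeq2 (0.0467).

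POLQ, the polymerase of end joining at microhomologies that competes with recombination, had 790.1 and 826 in siCt and 628 and 689 in siAXL. Both siAXL libraries were lower, and the change of -0.30 (SE 0.083) lay just inside the threshold by limma (adjusted p = 0.049) and edgeR (0.0474) and outside it by DESeq2 (0.0785). It was lost without siCt 2 (limma adjusted p = 0.125), without siAXL 1 (0.255) and without siAXL 2 (0.0785).

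Levels differed widely within the set. Per kb of merged exon, USP1 had 1489.7 and 1501 normalized counts in siCt 1 and siCt 2, and UBE2T had 1362 and 1577. The level of USP1 lay within the range of UBE2T in siCt, so the order of the 2 highest genes is not set there. In siAXL, USP1 was at 1247 and 1346 per kb and UBE2T at 924 and 1051, with no overlap. RBBP8 followed, at 683 and 705 per kb in siCt. The lowest were RAD51B (25.9 and 31.6) and RAD51D (27.4 and 30.4), which overlapped each other. Merged exon lengths came from GENCODE release 29 and count every annotated exon, so a gene with long unused exons is placed too low.

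**Figure D3:**
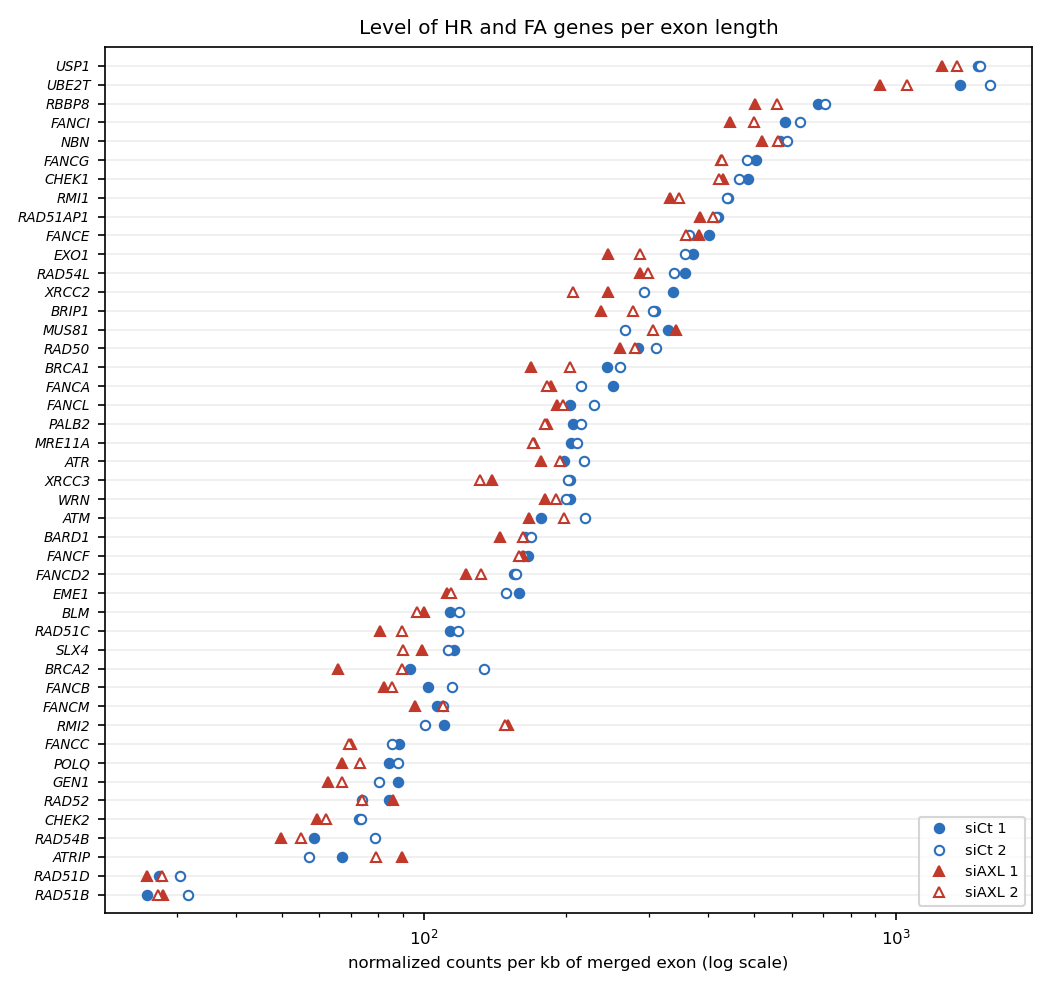
The x axis is the level in normalized counts per kb of merged exon on a log scale, and each row 1 of the 45 genes, ordered by the siCt mean, with 1 point for each library. USP1 and UBE2T are at the top and RAD51B and RAD51D at the bottom, and within most rows the 4 libraries are close beside the distance between genes.

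Genes outside the set were read from 3 further lists. Of 46 further HR and FA genes, 44 were tested (SLX1A and SLX1B were not), 9 were lower and 0 higher by limma, with a median log2 fold change of -0.13. The nuclease-helicase DNA2 fell by 0.68 on the log2 scale (SE 0.067, limma adjusted p = 0.00232), and the checkpoint mediator CLSPN (-0.46, limma adjusted p = 0.00433) and SFR1 (-0.41, limma adjusted p = 0.0112, and 0.0565 without siAXL 2) were lower too. SFR1 works with SWI5, which had the most positive estimate (0.15, limma adjusted p = 0.271).

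Of the 23 end joining genes, 2 were lower and 0 higher, with a median of -0.074. These were the checkpoint mediator MDC1 (-0.27, limma adjusted p = 0.0157) and the end-processing enzyme APTX (-0.25, limma adjusted p = 0.0352). Both calls were lost without siAXL 1 (limma adjusted p = 0.0798 and 0.149) and without siAXL 2 (0.0724 and 0.131), and that of APTX also without siCt 2 (0.13). The ligase LIG3 (-0.21, limma adjusted p = 0.0624) did not pass, and APLF had the most positive estimate (0.20, limma adjusted p = 0.138). Of the 43 replication genes, 30 were lower and 0 higher, with a median of -0.37. They were led by MCM10, a replication initiation factor (-0.64, limma adjusted p = 0.00212), CCNE2, a cyclin of S phase entry (-0.64, limma adjusted p = 0.00265), and the transcription factor E2F1 (-0.52, limma adjusted p = 0.00304). The other cyclin E gene, CCNE1, was at 0.0033 (SE 0.10, limma adjusted p = 0.986), and below 0 with scaling by library size alone. The share of genes called lower was thus 35.6% in the HR and FA genes, 20.5% in the further HR and FA genes, 8.70% in the end joining genes and 69.8% in the replication genes, against 7.91% of all genes tested. The lists were chosen with earlier results of these data known, so these shares are not an independent contrast of pathways. The replication list also holds cyclin E genes and E2F1. Replication genes moved in the same comparison as the HR and FA genes, and their part in the result was not tested.

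**Figure D4:**
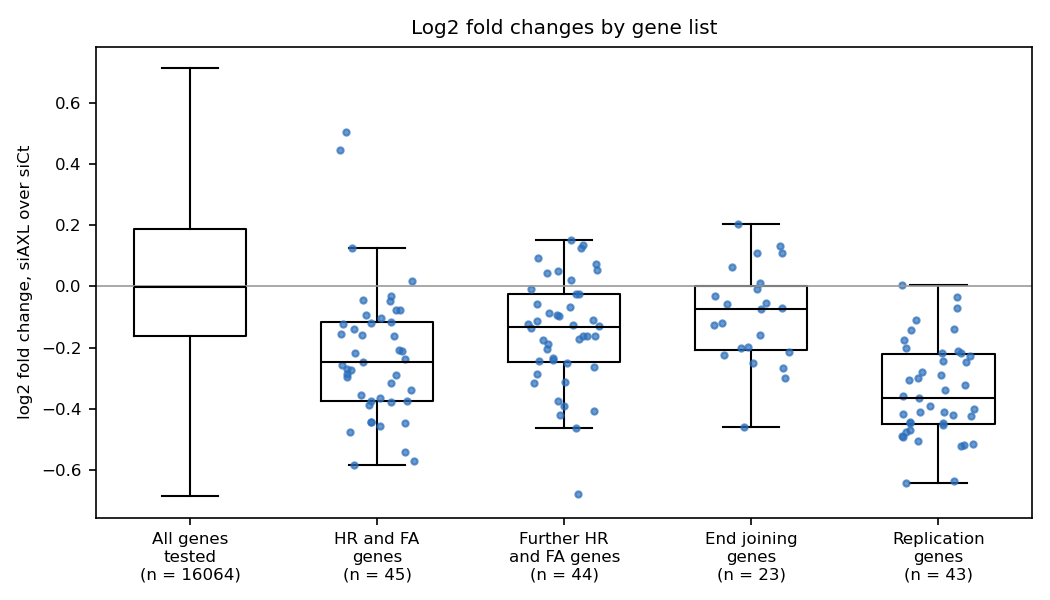
The y axis is the log2 fold change of siAXL over siCt. Boxes give the quartiles and median of each list and of all genes tested, whiskers reach to 1.5 times the interquartile range, and points are genes, drawn for the lists only. The medians are -0.25 for the HR and FA genes, -0.13 for the further genes, -0.074 for end joining and -0.37 for replication.

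The count of genes called lower changed little with the test used, and more with scaling by library size, removal of trends and a stricter threshold. With edgeR on the recovered reads 17 genes were lower (against 7.92% of the genes tested) and 2 higher (against 11.5%). With DESeq2 the counts were 16 (against 8.92%) and 2 (against 11.8%), and with TMM scaling 17 (against 7.88%) and 2 (against 11.5%). Scaling by library size alone gave 24 (against 10.9%) and 1 (against 9.56%), and over all genes it moved the share of calls that were higher from 57.7% to 46.8%. After removal of trends with GC content and transcript length, a setting chosen after the data were seen, the counts were 22 (against 9.85%) and 2 (against 11.7%). At an adjusted p under 0.01, XRCC3 and UBE2T were lower (against 1.53%) and 0 genes were higher (against 3.82%). A pseudocount of 0.5 gave 16 and 2 and a pseudocount of 8 gave 15 and 2, against 7.91% and 7.88% lower and 10.8% higher. ATRIP and RMI2 stayed above 0 with each of these scalings, and among the HR and FA genes RAD52 alone changed sign with a scaling, to -0.012 with library size alone.

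**Figure D5:**
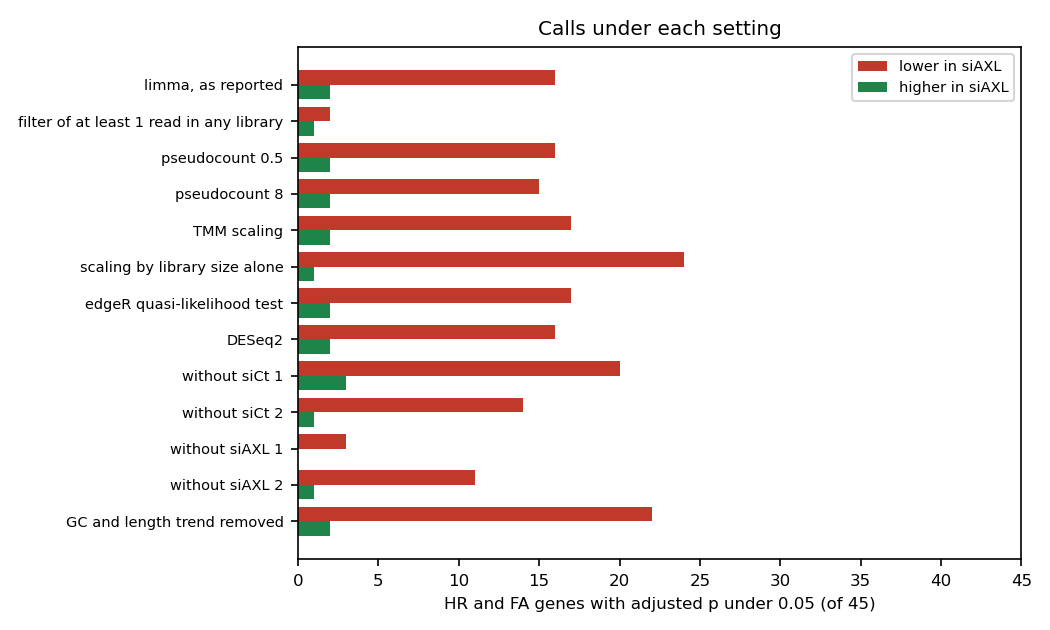
Bars start at 0 and give the number of the 45 genes with an adjusted p under 0.05, lower (red) and higher (green) in siAXL, for the fit as reported and for each alternative. The count of lower genes is 16 as reported, 3 without siAXL 1, 2 with the filter of at least 1 read and 24 with scaling by library size alone.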

How the data were processed

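RNA sequencing was performed on an Illumina HiSeq instrument from RNeasy extracts of 4 libraries. Per the submitters' processing notes the authors used CASAVA 1.8, TopHat2 2.0.10, HTSeq 0.5.3 and DESeq2 1.4.5 on GRCh37. The strand setting of the counting and the annotation release are not given in the sources used here. The deposited values are a signal of gene counts divided by a size factor for each library. All of them (100%) were whole multiples of 1 read within 0.01, so reads were recovered. The authors' own fold changes and p-values in the same table were not used.

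Normalized counts were transformed as log2(value + 1) and compared by limma 3.58.1 with a mean trend in R 4.3.3, over 16064 genes kept by edgeR's expression filter, with Benjamini-Hochberg adjustment over all of them and a threshold of 0.05. A fold change on this scale understates changes of low genes. Alternatives were edgeR 4.0.16 (quasi-likelihood) and DESeq2 1.42.0 on recovered reads, other scalings, filters, pseudocounts (0.5 and 8), a threshold of 0.01, a replicate block and leaving out each library. The fitting was tested on simulated counts drawn as independent libraries. The pass mark there was set only on changes larger than those of the 45 genes. It does not show how well changes of their size are called. The members and lists were chosen with earlier results of these data known. Per-library values were given for up to 4 called members of each role by adjusted p, plus the member with the largest change in the other direction or, with none, the largest adjusted p. AXL and, from each further list, the 3 genes with the smallest adjusted p and the 1 with the largest change in the other direction were named as well. Replicate libraries differed beyond sampling noise (mean chi-square per gene 21.9 and 19.7), which does not show that they came from separate cultures. Each was entered in the fits as 1 library. Values of 1 or more listed genes are not reported here.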

Additional observations from a re-analysis of the deposited data

How the results depend on the processing

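The median log2 fold change of the HR and FA genes stayed below 0 under every alternative, at -0.28 with library size alone and from -0.26 to -0.22 with single libraries left out, and AXL passed in each, from -2.07 to -1.79 with single libraries left out. Counts of called genes moved more. With single libraries left out, between 3 and 20 HR and FA genes were lower, 0 to 3 higher, and 4 to 10 further HR and FA genes, 0 to 4 end joining genes and 14 to 29 replication genes were lower, while the share of all genes called ranged from 2.57% to 10.8% lower and from 5.43% to 13.4% higher. When 1 library is left out, its partner is assumed to vary like the other group. With all genes of at least 1 read, the counts were 2 lower and 1 higher, with 3 further, 1 end joining and 14 replication genes lower (against 1.25% lower and 2.79% higher). At an adjusted p under 0.01 they were 2 and 0, with 2, 0 and 14 (against 1.53% and 3.82%). Library size alone left 1 gene higher and 5 end joining genes lower (against 9.56% and 10.9%). Removing trends with GC content and transcript length, an alternative chosen after seeing the data, gave 22 HR and FA genes and 5 end joining genes lower (against 9.85%). The cause of these shifts was not tested.

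The replicate block gave 31 HR and FA genes lower and 3 higher (against 22.2% and 23.3% of the genes tested), with 23 further and 10 end joining genes lower. Same-numbered libraries share only a number, and deviations of siCt 1 and siAXL 1 from their group means correlated at r = 0.27 across 16064 genes, with only 2 pairs to judge by.

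Some genes that did not pass changed sign. With single libraries left out, the log2 fold change ranged from -0.27 to 0.036 for ATM, from -0.19 to 0.096 for RAD51B, from -0.093 to 0.13 for RAD52, from -0.027 to 0.28 for MUS81, from -0.12 to 0.024 for FANCE, from -0.17 to 0.022 for FANCM and from -0.085 to 0.092 for CCNE1. With library size alone it was -0.012 for RAD52 and -0.026 for CCNE1. RAD51B had the fewest reads of the set, 844 over the 4 libraries, and a change of the size fitted for it was not detectable at this depth and number of libraries.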
